A study of Mus musculus with 30 samples.

Results

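Major urinary proteins (Mup) were followed in liver RNA from 30 male C57BL6/J mice on 5 diets, 6 mice per diet and 1 library per mouse. The members are the genes whose symbol is Mup followed by a number, and 20 of the 14173 genes in the count tables met this rule (Mup1 to Mup18, Mup20 and Mup21). The casein diets were Cas-20% (labelled NP, 20% protein, methionine 0.57 g% and cysteine 0.41 g%) and Cas-5% (labelled LP, 5% protein, 0.15 and 0.1 g%). The soy diets were Soy-20% (labelled 20Soy, 0.22 and 0.22 g%), Soy-20% + SAA (labelled 20Soy_SAA, the same protein level with sulfur amino acids added to 0.58 and 0.41 g%) and Soy-10% (labelled 10Soy, 11.5% soy in the labels, 0.13 and 0.13 g%). Mice had 2 weeks of acclimation on a 20% casein or soy diet, started the test diets at 12 weeks of age, ate them for 12 weeks, and were 6 months old and fasted for 4 h when livers were taken. The labels give no genotype beyond the strain. Whole liver was sequenced, so fewer cells of a type and less RNA per cell cannot be told apart.

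Mup proteins are small lipocalins, secreted carriers with a barrel-shaped pocket that holds hydrophobic ligands. Hepatocytes release them into blood, the kidney passes them into urine, and there they bind and slowly release volatile pheromones that mice use to read sex, identity and status. In male mouse liver, Mup transcription depends on pulses of growth hormone acting through STAT5b, on androgens and thyroid hormone, and it is known to respond to feeding state.

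The genes form 1 cluster on mouse chromosome 4, from 59956804 to 62150863 on GRCm38, a stretch of 2.19 Mb in which GENCODE M21 places 22 Mup genes and 26 Mup pseudogenes. Mup19 and Mup22 have no row in the tables. Mup6 is the 1 gene on the plus strand, and no other annotated gene overlaps any member on either strand. The cluster holds near copies, which bears on every count below. Of the words of 50 bases in the last 500 bases of each member's transcripts, the share found in no other gene was 71.0% to 96.3% for Mup3, Mup4, Mup5, Mup6, Mup20 and Mup21. For the other 14 members it was 0% to 42.6%, with 42.6% for Mup17, 41.8% for Mup1, 28.2% for Mup11 and 11.3% for Mup9. Words were pooled over a member's annotated transcripts, 1 for Mup17, 4 each for Mup1 and Mup11 and 8 for Mup9. Which of these ends the reads come from was not tested. Mup2, Mup10, Mup13 and Mup15 had no such word at all, so reads counted for them could not be told from reads of their copies by these sequences. With words of 75 bases, the length of reads in the study's methods, Mup17 reached 56.8% and the 4 members without a word of 50 had 0% to 0.442%. Single counts of the 14 members are uncertain, and how the counting handled reads that match several genes is not given in the sources used here.

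The likeness extends upstream of the genes. RefSeq promoter windows on GRCm38.p6, from 250 bases before to 50 bases after each annotated start, matched 13 of the 20 members. The letters TATATAA were found on either strand in 12 of these 13 windows (all but that of Mup7) and in 3.24% of 32851 windows of all genes. The STAT5-type letters TTCNNNGAA were found in 0 of the 13 and in 8.30% of all windows, which describes this window and no more. Shown are the 100 bases before the TATA box and the box itself, in capitals, for the 4 members that differed between soy diets and for 2 members with largely unique transcript ends.
Mup11 (chr4:60662391-60662497, minus strand): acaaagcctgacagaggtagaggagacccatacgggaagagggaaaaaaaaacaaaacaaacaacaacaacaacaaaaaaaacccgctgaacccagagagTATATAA
Mup17 (chr4:61595851-61595957, minus strand): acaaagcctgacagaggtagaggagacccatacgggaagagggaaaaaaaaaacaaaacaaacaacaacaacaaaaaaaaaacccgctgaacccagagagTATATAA
Mup9 (chr4:60421977-60422083, minus strand): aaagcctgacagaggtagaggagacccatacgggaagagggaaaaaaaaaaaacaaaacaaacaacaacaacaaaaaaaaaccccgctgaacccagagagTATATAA
Mup2 (chr4:60139877-60139983, minus strand): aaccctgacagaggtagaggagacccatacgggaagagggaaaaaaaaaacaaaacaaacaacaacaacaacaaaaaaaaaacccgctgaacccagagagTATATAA
Mup3 (chr4:62087322-62087428, minus strand): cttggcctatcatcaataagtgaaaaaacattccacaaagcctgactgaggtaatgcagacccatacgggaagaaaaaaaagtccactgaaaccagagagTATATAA
Mup21 (chr4:62150843-62150949, minus strand): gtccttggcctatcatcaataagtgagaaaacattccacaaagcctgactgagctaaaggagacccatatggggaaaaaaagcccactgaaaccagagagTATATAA
Over these 107 bases, the Mup17 stretch differed from that of Mup11 by 2 single-base edits, and those of Mup9 and Mup2 by 7 each. Mup3 and Mup21 stood 45 and 47 edits away. The stretches have a fixed length, so the shorter A-rich part in Mup3 and Mup21 shifts the sequence before it and adds to these counts. In Mup11, the last 5 bases shown lie past the annotated start.

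Library totals ran from 7694015 to 14565542 counts, with a median of 10803734.5, and the family as a whole took between 0.963% and 2.27% of a library. Hepatocyte markers (Alb, Apoa1, Ttr, Cyp2e1, Cps1) summed to 695050 to 928216 normalized counts in every liver, so the tissue matched its label. Pancreatic acinar markers (4 of 5 in the table) summed to 164 to 629 on 4 diets and reached 4453 on Soy-10%, and none of 5 lacrimal or salivary gland markers, from glands that also make Mup proteins, was in the table. Red blood cell, Kupffer cell, endothelial, stellate and cholangiocyte marker sums overlapped between diets, except that cholangiocyte markers, at 266 to 352 on Soy-10%, lay below Cas-20%, Cas-5% and Soy-20% and overlapped with Soy-20% + SAA. Libraries 3 to 6 of Soy-20% + SAA stood apart in how counts followed the GC content of transcript ends. On the log2 scale per 10 percentage points of GC, slopes were 0.0589 in library 3 and 0.197 to 0.222 in libraries 4 to 6. The 26 other libraries had −0.0771 to 0.0441, so library 3 stood apart least. Values without libraries 3 to 6 or with the GC slope as a covariate are given for the comparisons that use this diet. The part of pancreatic or cholangiocyte markers in the Mup results was not tested.

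Summed over its 20 genes, the family was highest on Cas-5%, at 1.75% ± 0.241 of the library (SD, n = 6), then on Soy-20% at 1.71% ± 0.432, Soy-10% at 1.67% ± 0.205, Cas-20% at 1.46% ± 0.348 and Soy-20% + SAA at 1.31% ± 0.270. The lowest, median and highest liver were 1.31%, 1.85% and 1.94% on Cas-5%, and 0.963%, 1.51% and 1.90% on Cas-20%. They were 1.45%, 1.67% and 1.97% on Soy-10%, and 0.979%, 1.34% and 1.63% on Soy-20% + SAA. On Soy-20%, the lowest, median and highest liver were 1.25%, 1.61% and 2.27%. All 5 diets overlapped, and no diet stood apart from its neighbour in this order beyond the spread of its livers. The mean share on Cas-5% was 1.20 times that on Cas-20% (log2 ratio 0.27), and 2 of 6 Cas-5% livers lay above all Cas-20% livers. Soy-10% had 1.27 times the share of Soy-20% + SAA (log2 ratio 0.35), with 3 of 6 livers above all of that control, and 0.978 times the share of Soy-20% (log2 ratio −0.03). Without libraries 3 to 6 of Soy-20% + SAA, the log2 ratio to that control was 0.32. The order depends on the scaling: the sums of normalized counts were highest on Soy-20% (186837), then on Soy-10% (177190), Cas-5% (173573), Cas-20% (164271) and Soy-20% + SAA (144995). No p is given for the family sum, because the members were chosen with earlier results known.

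**Figure D1:**
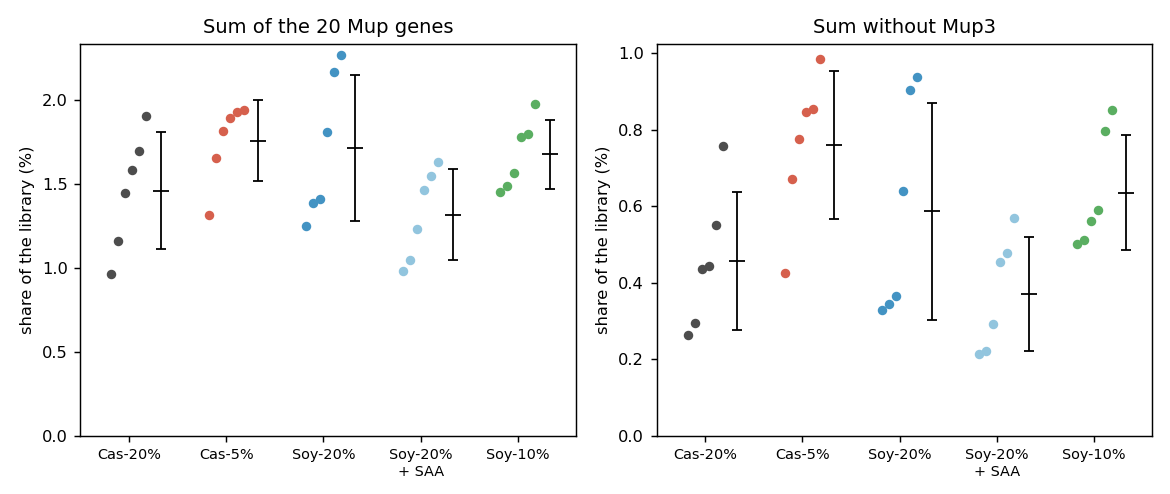
Share of each library's counts in percent (vertical axis) taken by all 20 Mup genes (left) and by the 19 genes without Mup3 (right) on the 5 diets. Each point is 1 liver, drawn in order of value within its diet, and the bar gives the mean and SD over 6 livers. The diets overlap in both panels, and without Mup3 the means of the restricted diets, 0.759% on Cas-5% and 0.635% on Soy-10%, stand at 1.66 and 1.71 times those of Cas-20% and Soy-20% + SAA. Against the other soy control, Soy-20% at 0.587%, the Soy-10% mean stands at 1.08 times.

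A few genes made up most of the sum. Mup3 held 64.7% of all Mup reads, Mup11 14.6%, Mup20 (darcin, the male pheromone protein that attracts females) 8.84% and Mup17 6.00%. The 16 other members together held between 3.57% and 7.77% of the Mup reads in each liver. These are shares of 3′ end reads, which are not scaled by gene length. The make-up of the Mup reads was then set out by diet, as a description. Mup11 took 23.0% ± 4.47 of Mup reads on Cas-5% and 9.68% ± 3.48 on Cas-20%, and 5 of 6 Cas-5% livers lay above all Cas-20% livers. Its share was 16.7% ± 3.76 on Soy-10%, 7.92% ± 3.76 on Soy-20% + SAA and 11.6% ± 4.93 on Soy-20%. The share of Mup3 was 57.4% ± 6.09 on Cas-5%, 69.4% ± 5.16 on Cas-20%, 62.4% ± 4.88 on Soy-10%, 72.7% ± 5.89 on Soy-20% + SAA and 67.4% ± 7.98 on Soy-20%. Shares of Mup reads are parts of a whole, so a larger Mup11 share by itself lowers the shares of other members. Fold changes of Mup3 in counts, given below, did not pass in either restriction comparison. Mup20 took 7.26% ± 0.965 on Soy-20%, the lowest mean, and 10.6% ± 1.41 on Cas-5%, the highest. The highest Soy-20% liver was at 8.62% and the lowest Cas-5% liver at 8.73%. In normalized counts of Mup20 these diets overlapped, at 9125 to 19512 on Soy-20% and 16544 to 19891 on Cas-5%. The pair was picked by its means and was not tested.

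**Figure D2:**
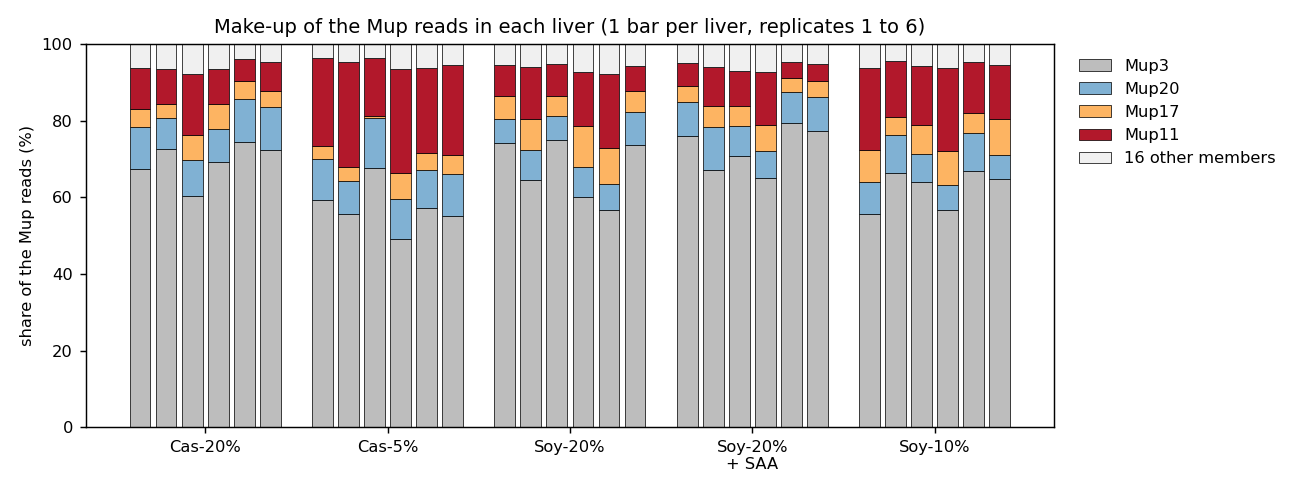
Make-up of the Mup reads in percent (vertical axis) in each of 30 livers, 1 bar per liver in the order of replicates 1 to 6 within each diet. Colours mark Mup3, Mup20, Mup17, Mup11 and the 16 other members. The Mup11 band is widest on Cas-5%, with a mean of 23.0%, and narrowest on Soy-20% + SAA, with a mean of 7.92%, and the third Cas-5% bar has almost no Mup17.

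Casein restriction was addressed by Cas-5% against Cas-20%. Here Mup11 rose while Mup7 and Mup12 fell. In edgeR's quasi-likelihood test, with p adjusted by Benjamini-Hochberg over all 12076 genes, 3 of 19 members (15.8%) had an adjusted p of 0.05 or less, beside 24.9% of all genes. They were 1 higher, beside 11.6%, and 2 lower, beside 13.3%. Unadjusted, 7 members had a p under 0.05, beside 36.6% of all genes, and 0 of 20 members had livers without overlap, beside 12.9%. Mup13, at 0.996 to 12.2 normalized counts on Cas-20%, was too low to be tested. Of the 19 log2 fold changes 10 were positive and 9 negative, with a median of 0.07 beside 0.02 over all genes.

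Mup11 had normalized counts (raw counts divided by a size factor per library) of 19174, 42006 and 53349 in the lowest, median and highest Cas-5% liver, and of 7231, 14010 and 34314 with Cas-20%. The Cas-5% liver at 19174, replicate 3, was the 1 that lay within the Cas-20% range. The log2 fold change was 1.303 (SE 0.306, fold 2.47, edgeR adjusted p = 0.00477). Mup7 read 14.96, 81.2 and 144 on Cas-5% against 96.6, 206 and 334, which gave a log2 fold change of −1.27 (SE 0.376, edgeR adjusted p = 0.0197). Its livers overlapped between 96.6 and 144. Mup12 read 489.9, 1225 and 2131 against 795, 2466 and 4773, a log2 fold change of −1.03 (SE 0.369) just inside the threshold at an edgeR adjusted p = 0.0496. The calls of Mup11 and Mup7 held whichever of 12 livers was left out, whereas Mup12 was lost without any 1 of 8 livers (Cas-20% replicates 1, 3 and 4 and all of Cas-5% but replicate 5), at adjusted p of 0.054 to 0.129, and DESeq2 gave it 0.0834. With the GC slope as a covariate Mup7 and Mup12 had log2 fold changes of −1.31 and −1.05, as large as without it, at adjusted p of 0.0523 and 0.152. Mup11 was then the 1 member called, beside 2570 of 12076 genes.

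Several other members leaned one way without passing. Mup15 had a log2 fold change of 0.99 (SE 0.433, edgeR adjusted p = 0.108) and Mup9 of 0.74 (SE 0.296, adjusted p = 0.0778), and Mup2 of −0.85 (SE 0.348, adjusted p = 0.0868). Without Cas-5% replicate 3, Mup9 and Mup15 would be called, at log2 fold changes of 0.93 and 1.21 (edgeR adjusted p = 0.0042 and 0.0245). Mup2 would be called lower without Cas-20% replicate 6 or Cas-5% replicate 5 (−1.10 to −0.98, adjusted p = 0.0367 to 0.0461), and Mup14 without Cas-5% replicate 2 (−0.93, adjusted p = 0.0326). Mup3 and Mup20, the first and the third most abundant members, did not pass the test. Mup3 read 98472 ± 8306 on Cas-5% and 112674 ± 20272 in the control, with a log2 fold change of −0.18 (SE 0.112, edgeR adjusted p = 0.268). Mup20 read 18060 ± 1356 against 16353 ± 4822, a log2 fold change of 0.16 (SE 0.157, adjusted p = 0.504). Mup21 (log2 fold change 0.27), Mup10 (0.20), Mup8 (0.27), Mup16 (0.08), Mup18 (0.07), Mup6 (−0.02), Mup4 (−0.15), Mup17 (−0.19), Mup1 (−0.54), Mup14 (−0.54) and Mup5 (0.69) had adjusted p between 0.131 and 0.969.

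Soy restriction was addressed by Soy-10% against Soy-20% + SAA, the control with sulfur amino acids like those of Cas-20%. Mup9, Mup11 and Mup17 rose and Mup2 fell. Of 19 members tested 4 (21.1%) had an adjusted p of 0.05 or less, beside 17% of all 11983 genes. They were 3 higher, beside 8.51%, and 1 lower, beside 8.47%. Unadjusted, 8 members had a p under 0.05, beside 33.9%. The log2 fold changes were positive for 15 members and negative for 4, with a median of 0.33 beside −0.01 over all genes. Members are near copies read in the same livers, so their signs are not independent.

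Mup9 read 851, 1542 and 2714 normalized counts in the lowest, median and highest Soy-10% liver and 235, 448 and 752 on Soy-20% + SAA, so every Soy-10% liver lay above every control liver. The log2 fold change was 1.81 (SE 0.295, fold 3.51, edgeR adjusted p = 0.00166). Mup2 went the other way, at 30.8, 44.2 and 57.4 against 77.9, 95.7 and 110, again with no overlap, a log2 fold change of −1.07 (SE 0.141, fold 0.475, edgeR adjusted p = 0.000451). These 2 were the members whose livers did not overlap in this comparison (2 of 20, beside 6.22% of all genes tested). Their promoter stretches shown above each stand 7 edits from that of Mup11, and the share of unique 50-base words at their transcript ends was 11.3% and 0%.

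Mup11 read 21492, 25218 and 45438 on Soy-10% and 4732, 11730 and 24990 on Soy-20% + SAA, and 4 of 6 Soy-10% livers lay above all controls. Its log2 fold change of 1.28 (SE 0.370, edgeR adjusted p = 0.0299) was beside 1.303 with casein. Mup17 read 7363, 13290 and 18824 against 4217, 7221 and 12083, a log2 fold change of 0.83 (SE 0.269, edgeR adjusted p = 0.0472). The calls of Mup9 and Mup2 held whichever liver was left out. Mup11 was lost without any 1 of 4 livers (Soy-20% + SAA replicates 5 and 6, Soy-10% replicates 1 and 4), at adjusted p of 0.0544 to 0.0642. Mup17 was lost without any 1 of 9 livers (all but Soy-20% + SAA replicates 2 and 4 and Soy-10% replicate 2), at adjusted p of 0.0566 to 0.098.

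Without libraries 3 to 6 of Soy-20% + SAA, which leaves 2 controls, Mup9, Mup2 and Mup11 remained called at log2 fold changes of 1.87, −1.18 and 1.33 (edgeR adjusted p = 0.0127, 0.00506 and 0.0459). Mup17 then had a log2 fold change of 0.85 and an adjusted p of 0.153, and of 0.146 with all 30 livers in 1 fit. With the GC slope as a covariate 2 members were called, beside 327 of 11983 genes. Mup11 and Mup17 then had log2 fold changes of 1.29 and 0.85, as large as without this covariate, at adjusted p of 0.170 and 0.211. Among the members that did not pass, Mup10 had a log2 fold change of 0.46 (SE 0.162, edgeR adjusted p = 0.0642), Mup6 of 0.56 (SE 0.225, adjusted p = 0.0963), Mup15 of 0.68 (SE 0.277, adjusted p = 0.0985) and Mup5 of 0.68 (SE 0.316, adjusted p = 0.142). Mup4, Mup10 and Mup15 would be called without Soy-20% + SAA replicate 2, 1 and 4 in this order, at 0.70, 0.50 and 0.88. The edgeR adjusted p were 0.0364, 0.0445 and 0.0485, and 2819, 3119 and 1427 genes were then called over the whole table. Mup3 read 109904 ± 10706 on Soy-10% and 103985 ± 14544 on the control, a log2 fold change of 0.08 (SE 0.101, adjusted p = 0.621). Mup20 (0.19), Mup21 (0.28), Mup4 (0.44), Mup8 (0.38), Mup14 (0.33), Mup18 (0.22), Mup16 (0.12), Mup7 (−0.05), Mup12 (−0.49) and Mup1 (−0.52) had adjusted p between 0.237 and 0.941.

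**Figure D3:**
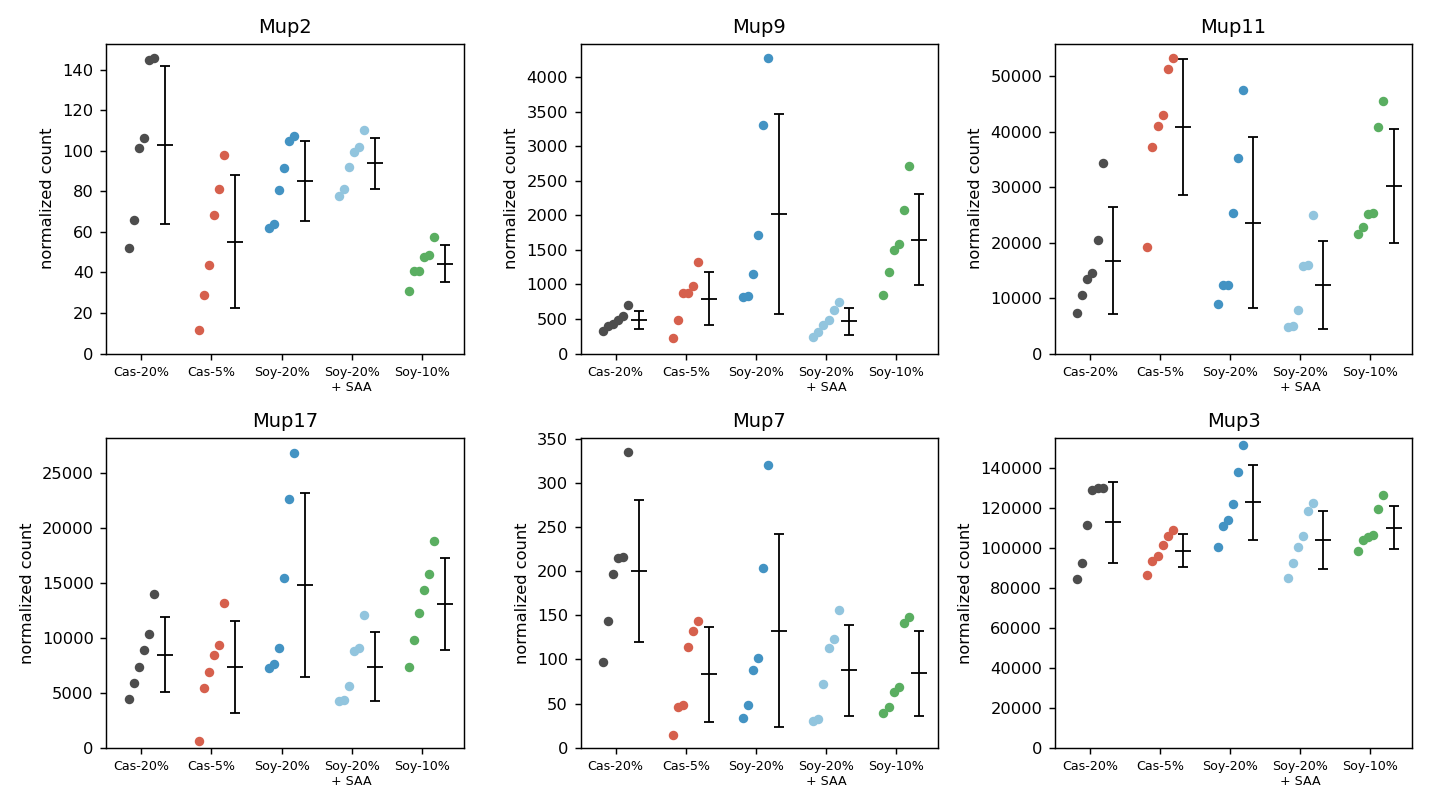
Normalized counts (vertical axes, each from 0) of Mup2, Mup9, Mup11, Mup17, Mup7 and Mup3 on the 5 diets. Each point is 1 liver, drawn in order of value within its diet, and the bar gives the mean and SD over 6 livers. Soy-10% livers lie below every liver of both soy controls for Mup2, and Soy-20% + SAA livers lie below every liver of both other soy diets for Mup9.

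Soy-20%, the diet with the same soy protein and no added sulfur amino acids, was the second soy control. Against it, 1 of 19 members (5.26%) was called on Soy-10%, and lower, beside 0.866% of all 11897 genes, or 0.319% higher and 0.546% lower. Unadjusted, 2 members had a p under 0.05 (Mup2 and Mup1), beside 12.3%. That member was Mup2, which read 61.8, 85.9 and 107 in the lowest, median and highest Soy-20% liver and lay below that range in all 6 Soy-10% livers (1 of 20 members without overlap, beside 1.34%), a log2 fold change of −0.93 (SE 0.167, edgeR adjusted p = 0.0122). The call held whichever of 12 livers was left out. It was lost when all 30 livers entered 1 fit, at a log2 fold change of −0.93 and an adjusted p of 0.193. Mup9 and Mup11 did not pass, with log2 fold changes of −0.29 (SE 0.379, adjusted p = 0.836) and 0.35 (SE 0.344, adjusted p = 0.755). The median log2 fold change was −0.16 over 19 members and −0.000399 over all genes.

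Between both 20% soy diets, which differ in added sulfur amino acids, no member passed, beside 0.00838% (1 gene) of 11932 genes tested. At an unadjusted p under 0.05 there were 6 of 19 members, beside 24.2% of all genes, and 18 of 19 log2 fold changes were negative with a median of −0.48, beside 0.00399 over all genes. The signs are not independent, as the members are near copies read in the same livers. Soy-20% replicates 4 and 5 were the highest Soy-20% livers for 9 and 10 of the 20 members. With the GC slope as a covariate, 1 of 19 members had an unadjusted p under 0.05, beside 1027 of 11932 genes. Without libraries 3 to 6 of Soy-20% + SAA it was 3 of 20, beside 844 of 12396. DESeq2 called 1 member, Mup9, beside 6.16% of 14167 genes. Mup9 read 814, 1435 and 4278 on Soy-20%, so all 6 Soy-20% + SAA livers lay below all Soy-20% livers (1 of 20 members, beside 2.04% of all genes tested). Its log2 fold change was −2.11 (SE 0.423, fold 0.231) at an edgeR adjusted p = 0.0546, and DESeq2 gave 0.00299. It passed the threshold without Soy-20% + SAA replicate 1 or 2, at 0.0142 and 0.0269, but in these settings 1587 and 1118 genes were called over the whole table. Without libraries 3 to 6 its log2 fold change was −2.17 and its adjusted p 0.628, with 2 livers left. Mup17 had a log2 fold change of −1.02 (SE 0.355, edgeR adjusted p = 0.110) and Mup11 of −0.94 (SE 0.466, adjusted p = 0.229). For both, 3 of 6 Soy-20% + SAA livers lay below all Soy-20% livers. Mup2, at a log2 fold change of 0.13, was the 1 member with a positive sign. This comparison and the preceding ones share livers, so their values are not independent.

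Casein and soy were set side by side at both protein levels. Between the control diets Cas-20% and Soy-20% + SAA, no member of 18 tested passed with edgeR, beside 2.43% of 11988 genes. Unadjusted, 2 members had a p under 0.05, beside 26.2%, 0 of 20 were without overlap, beside 2.69%, and DESeq2 called 1, Mup14 (log2 fold change 0.84, adjusted p = 0.0499), beside 8.01% of all genes. With edgeR, Mup7 had a log2 fold change of 1.21 (SE 0.374, adjusted p = 0.0756) and Mup14 of 0.86 (SE 0.298, adjusted p = 0.0976). Mup9 was at 480 ± 130 and 469 ± 195 normalized counts on these diets. With the GC slope as a covariate, edgeR gave 0 of 18 members an unadjusted p under 0.05, beside 1566 of 11988 genes. Without libraries 3 to 6 of Soy-20% + SAA it gave 2 of 19, beside 906 of 12498 genes.

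Between the restricted diets, Mup9 and Mup6 were lower on Cas-5% than on Soy-10%, 2 of 19 members (10.5%), beside 10.7% of 12041 genes, or 4.59% higher and 6.14% lower. Unadjusted, 4 members had a p under 0.05, beside 25% of all genes. Mup9 read 221, 873 and 1323 on Cas-5%, with 2 of 6 livers below all Soy-10% livers, a log2 fold change of −1.03 (SE 0.312, edgeR adjusted p = 0.0408). Mup6, a low but largely unique gene, read 16.5, 36.7 and 44.2 on Cas-5% and 46.5, 50.8 and 62.6 on Soy-10%. Its livers did not overlap (1 of 20 members, beside 5.86% of all genes tested), and its log2 fold change was −0.58 (SE 0.180, edgeR adjusted p = 0.0479). Neither call was firm. Mup9 had an adjusted p of 0.0762 with DESeq2 and was lost without any 1 of 7 livers (Cas-5% replicates 1, 2 and 5, Soy-10% replicates 1, 3, 4 and 6), at adjusted p of 0.0528 to 0.0937. Mup6 was lost without any 1 of 10 livers (all but Cas-5% replicates 4 and 5), at adjusted p of 0.0549 to 0.0945. Mup20 was higher on Cas-5% by a log2 fold change of 0.36 (SE 0.120) at an edgeR adjusted p = 0.0631, and Mup11 by 0.46 (SE 0.215) at 0.198. Mup20 would be called without Soy-10% replicate 5 (0.46, edgeR adjusted p = 0.0148) and Mup11 without Cas-5% replicate 3 (0.60, adjusted p = 0.0421).

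The difference of the casein and soy effects, tested as 1 contrast over 24 livers, was called for 0 of 19 members with edgeR, beside 8.69% of 12532 genes. Unadjusted, 1 member had a p under 0.05, Mup9, beside 3263 of 12532 genes. DESeq2 also called 0 members, beside 1352 of 14153 genes. With the GC slope as a covariate, and without libraries 3 to 6 of Soy-20% + SAA, edgeR called 0 members as well. For Mup11 the difference was 0.01 on the log2 scale (SE 0.516, adjusted p = 0.989), an SE too wide to show that both diets act alike. For Mup9 it was −1.08 (SE 0.453, adjusted p = 0.129), and for Mup7 −1.22 (SE 0.619, adjusted p = 0.209). Without Soy-20% + SAA replicate 2, Mup4 was called at −0.85 (edgeR adjusted p = 0.0472). Over all 30 livers, 4 of 19 members differed among the 5 diets, beside 43.4% of 12561 genes. They were Mup9 (edgeR adjusted p = 3.75e-05), Mup2 (0.00436), Mup11 (0.00667) and Mup10 (0.0421). Mup10 read 294 ± 30.4 on Cas-20%, 335 ± 82.8 on Cas-5%, 375 ± 59.6 on Soy-20%, 271 ± 70.3 on Soy-20% + SAA and 372 ± 56.7 on Soy-10%.

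**Figure D4:**
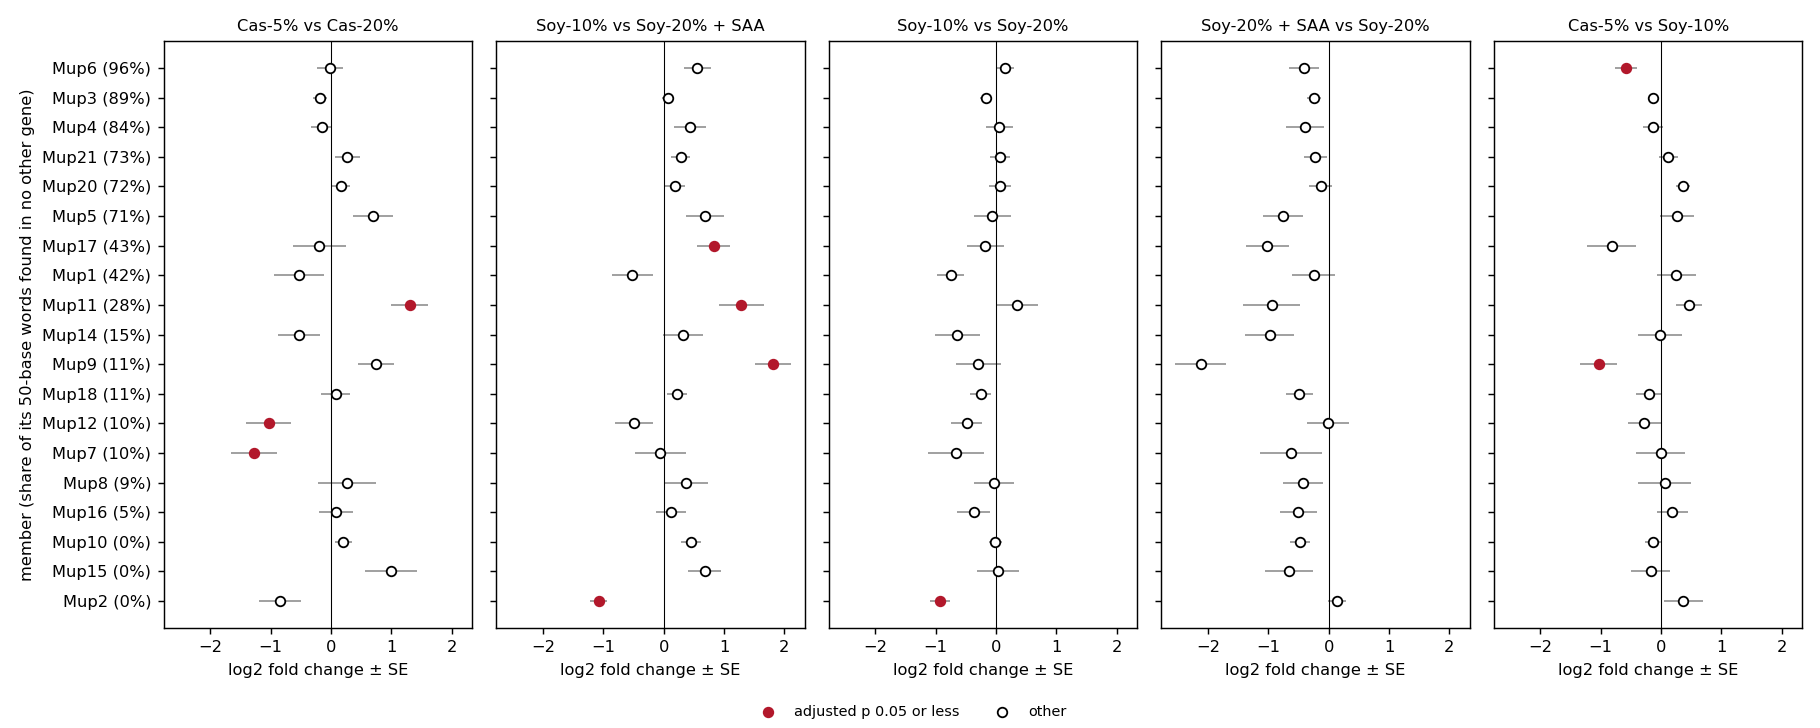
Log2 fold changes with standard errors (horizontal axes) of the 19 tested members in 5 comparisons (from left, Cas-5% against Cas-20%, Soy-10% against Soy-20% + SAA, Soy-10% against Soy-20%, Soy-20% + SAA against Soy-20%, and Cas-5% against Soy-10%), ordered by the share of 50-base words at their transcript ends found in no other gene (in brackets). Filled points have an edgeR adjusted p of 0.05 or less. Among the 6 members at the top, with shares of 71.0% or more, 1 point is filled (Mup6, Cas-5% against Soy-10%), and the other filled points (Mup17, Mup11, Mup9, Mup12, Mup7 and Mup2) are at shares of 42.6% or less.

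Members varied more between mice on 1 diet than most genes did. For the 19 members with a mean of 10 or more normalized counts over 30 livers, the median coefficient of variation within a diet was 31.7% on Soy-10% to 41.5% on Soy-20% + SAA. Over all 11992 genes at that level it was 12.1% to 16.5%. Mup20 and Mup3 were among the steadiest on Cas-5%, at 7.51% and 8.43%, and Mup7 was the most variable on Soy-20%, at 82.7%. The same livers were often low for many members. Cas-5% replicate 3 was the lowest Cas-5% liver for 15 of 20 members, and Mup17 read 627 there against 5418 to 13195 in the 5 other Cas-5% livers. Mup20, at 16544, and Mup21, at 2029, were not out of line in this liver. Cas-20% replicate 5 was lowest for 14 members and Cas-20% replicate 3 highest for 14.

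Over the 30 livers, Mup1 and Mup12 had the highest rank correlation of any pair of members (Spearman rho 0.939), then Mup17 and Mup18 (0.920) and Mup16 and Mup18 (0.901). These pairs share sequence, libraries and diets, and the values are a description. Mup2 was the exception. Its rho with the family share was −0.29, whereas the 18 other members at this level had values from 0.46 (Mup12) to 0.92 (Mup11, which is itself a large part of the sum). The lowest values among pairs were those of Mup2 with Mup5 (−0.44) and with Mup11 (−0.42).

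Among the genes outside the family that followed the Mup share most closely over 30 livers were Adh6-ps1, annotated as an alcohol dehydrogenase pseudogene (Spearman rho 0.811), Slco1a1, an organic anion transporter (0.771), Serpina1e, an antitrypsin (0.759), and Hsd3b5, a steroid dehydrogenase (0.752). The last 3 are among 30 male-biased liver genes listed for comparison. Of these 4, Adh6-ps1 rose on Cas-5% (log2 fold change 0.72, edgeR adjusted p = 0.00206) and on Soy-10% against Soy-20% + SAA (0.80, adjusted p = 0.0315). Slco1a1 (0.35), Serpina1e (0.83) and Hsd3b5 (0.23) had adjusted p of 0.0966, 0.141 and 0.565 on Cas-5%.

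Genes listed for growth hormone and androgen signalling, with hepatocyte transcription factors and Igf1 among them, were read beside the family, and 20 were tested. On Cas-5%, 3 were lower and 1 higher, beside 24.9% of all genes called in either direction, with a median log2 fold change of −0.04 beside 0.02 over all genes. Cebpa, a hepatocyte transcription factor, read 1675 ± 130 against 2502 ± 168 on Cas-20% (log2 fold change −0.56, SE 0.0685, edgeR adjusted p = 1.45e-05). Ghr, the growth hormone receptor, read 4170 ± 470.3 against 5904 ± 265 (−0.49, SE 0.0764, adjusted p = 0.000178). Igf1, the circulating mediator of growth hormone, read 9097 ± 926 against 11686 ± 961 (−0.35, SE 0.0804, adjusted p = 0.00433). On Soy-10% against Soy-20% + SAA, where 17% of all genes were called, 1 of the 20 was, Cebpb, at 922 ± 199 against 486 ± 118 (0.92, SE 0.161, adjusted p = 0.00263). Igf1 (−0.22) and Hnf4a, a nuclear receptor of hepatocyte identity (0.15), had adjusted p of 0.0804 and 0.1.

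Other sex-biased liver genes moved in both directions. For the lists that follow, the shares over all genes are 11.6% higher and 13.3% lower on Cas-5%, and 8.51% higher and 8.47% lower on Soy-10% against Soy-20% + SAA, with median log2 fold changes of 0.02 and −0.01. Of 27 male-biased genes tested, 3 were higher and 9 lower on Cas-5%, with a median log2 fold change of −0.24, and 2 were higher and 3 lower on Soy-10% against Soy-20% + SAA, with a median of −0.02. Cyp4a12b, a male-biased fatty acid hydroxylase, fell on both, at 118 ± 54.6 against 1259 ± 452 on Cas-20% (−3.40, SE 0.313, edgeR adjusted p = 8.35e-07) and 199 ± 72.6 against 834 ± 172 (−2.07, SE 0.214, adjusted p = 0.000134). On Cas-5%, Cyp2f2 (−0.73, adjusted p = 1.66e-05) and Ugt2b1 (−0.85, adjusted p = 4.96e-05), enzymes of foreign compound metabolism, also fell. On Soy-10%, Cspg5 rose (1.86, adjusted p = 0.00544) and Serpina12 fell (−0.38, adjusted p = 0.00922).

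Of 19 female-biased genes tested on Cas-5%, 5 were higher and 3 lower, with a median log2 fold change of 0.25 beside 0.02 over all genes. Of 16 tested on Soy-10% against Soy-20% + SAA, 2 were higher and 1 lower, with a median of 0.02. Cyp39a1, an oxysterol hydroxylase, rose on both (2.09, edgeR adjusted p = 8.26e-07, and 1.48, adjusted p = 0.000602), and Hamp2, a hepcidin gene, fell on both (−3.96, adjusted p = 8.24e-07, and −1.66, adjusted p = 0.0132). Cyp2c69 rose on Cas-5% (3.52, adjusted p = 7.84e-07) and Cyp2c40 on Soy-10% (2.02, adjusted p = 0.00186), both members of a family of near copies.

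Other lipocalins and other secreted liver proteins were compared with the Mup genes. Of 9 other lipocalins tested on Cas-5%, 1 was higher and 4 lower (24.9% of all genes in either direction), with a median log2 fold change of −0.60. Orm1, the acute phase lipocalin orosomucoid, read 599 ± 379 against 6324 ± 717 (−3.38, SE 0.280, edgeR adjusted p = 2.59e-07). Orm3 fell by 3.01 on the log2 scale (adjusted p = 2.2e-05), at low counts of 2.76 ± 1.39 against 24.2 ± 11.2. C8g, a complement subunit, fell by 0.60 (adjusted p = 3.85e-06). On Soy-10%, C8g was the 1 of 8 called (−0.26, adjusted p = 0.0200), whereas Orm3 (−1.47) and Apom, which binds sphingolipid (0.29), had adjusted p of 0.051 and 0.0737. Of 34 abundant secreted proteins, 6 were higher and 10 lower on Cas-5% and 1 was higher and 9 lower on Soy-10% against Soy-20% + SAA, with medians of −0.10 in both, beside 24.9% and 17% of all genes called in either direction. Serpina1d, an antitrypsin, fell on both (−0.90, adjusted p = 3.01e-06, and −0.43, adjusted p = 0.00157). On Cas-5%, Itih4 rose (0.71, adjusted p = 1.34e-05) and Apoc3 fell (−0.64, adjusted p = 1.53e-05). On Soy-10%, Kng1 (−0.30, adjusted p = 0.0106) and Apoe (−0.35, adjusted p = 0.0175) fell.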

How the data were processed

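Liver RNA of 30 mice, 1 library each, was grouped by diet from the sample labels. The authors made QuantSeq 3′ libraries and mapped and counted reads on the Bluebee platform with Lexogen's QuantSeq pipeline (FWD, version 2.3.6), on GRCm38/mm10. The aligner, the counter, its treatment of reads with several matches and the annotation are not given in the sources used here. Reads are 50 bp in the labels and 75 bp in the methods. The authors deposited raw counts per gene, and a second table as a normalized signal, which equals the counts divided by 1 DESeq2 size factor per library (DESeq2 1.30 and R 4.0.3 in the submitters' processing notes). Symbols lacking for 1718 genes were taken from GENCODE M21 for 1684.

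Counts were tested with edgeR 4.0.16 (R 4.3.3; filterByExpr, TMM, quasi-likelihood F test, two-sided) on the livers of the diets compared, with Benjamini-Hochberg adjustment over all genes and a threshold of 0.05. Fold changes are the first diet against the second. DESeq2 1.42.0 was an alternative. The scripts were tested on simulated counts. Each row matching the rule was accounted for. Outside the family, named genes were the 5 with the highest rank correlation with the family share, of which 1 is not reported here, and, from 5 lists written by hand, the 3 with the smallest p in each restriction comparison. The lists share genes, Ambp and Cux2 among them. Members and lists were chosen with earlier results of these data known. Alternatives were other normalizations, count filters, a replicate block, the GC slope of each library as a covariate, single livers left out and all livers in 1 fit. Leaving out libraries 3 to 6 of Soy-20% + SAA was chosen after seeing the data. P-values measure the spread between mice. Python 3.11.15, numpy 2.4.6, pandas 2.3.3 and matplotlib 3.10.9 were used for summaries and figures.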

Additional observations from a re-analysis of the deposited data

Results flagged for a closer look

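For the family share and each of the 20 members on each of the 5 diets, 105 groups of 6 livers were examined for a liver whose gap to the nearest other exceeded Dixon's 95% critical share of the group's range, which chance gives in about 1 of 20 groups. It was met in 3. Mup4 on Cas-5% had 1 liver at 22.3 normalized counts, against 32.6 to 37.0 in the 5 others. Mup13 on Soy-10% had 1 liver at 9.499, against 2.90 to 5.21, where a value rests on a few reads. Mup21 on Soy-10% had 1 liver at 2520, against 1463 to 1735.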

How the results depend on the processing

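Counts of members called moved by over 1.5 times in these settings. With the GC slope as a covariate they were 1 for Cas-5% against Cas-20% (3 otherwise), 2 for Soy-10% against Soy-20% + SAA (4), 1 for Cas-5% against Soy-10% (2) and 2 among any of 5 diets (4). Over all genes, this covariate gave 2570, 327 and 1418 for these pairs of diets in the same order (3008, 2035 and 1292 otherwise). With all 30 livers in 1 fit members called were 0 for Soy-10% against Soy-20% (1), 2 for Soy-20% + SAA against Soy-20% (0) and 0 for Cas-5% against Soy-10%. Over all genes, that fit gave 62, 1793 and 900 (103, 1 and 1292 otherwise). DESeq2 called 1 member for Soy-20% + SAA against Soy-20% and 1 for Cas-20% against Soy-20% + SAA (0 each otherwise), beside 873 and 1135 genes. No filter on low counts gave 1 member for Cas-5% against Soy-10%, beside 1263 genes. The causes were not tested. Without Mup3, the log2 ratio of the family share was 0.73 for casein (0.27 with it) and 0.77 for soy against Soy-20% + SAA (0.35 with it). With normalized counts in place of library shares it was 0.08 and 0.29. With single livers left out, members called ranged from 2 to 4 for casein, 2 to 5 for soy against Soy-20% + SAA, 1 to 1 against Soy-20%, 0 to 1 between the 20% soy diets, 0 to 0 between the controls, 0 to 2 between the restricted diets, 0 to 1 for the difference of effects and 3 to 6 among any diets. Over all genes, the ranges in this order were 2601 to 2888, 1219 to 3119, 50 to 146 and 0 to 1587. For the last 4 they were 9 to 1817, 981 to 1317, 719 to 1941 and 4626 to 6074. In the same settings, the log2 ratio of the family share ranged from 0.17 to 0.36 for casein from 0.28 to 0.42 for soy against Soy-20% + SAA, and from −0.11 to 0.06 against Soy-20%, whose sign also turned without Mup3 (0.12). The ratio of Cas-5% to Soy-10% turned from 0.07 to −0.03 with normalized counts. No fold change of a called member reversed in any setting run.

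Replicate numbers did not pair the livers. Deviations from the diet means correlated at −0.187 to 0.194 between same-numbered livers, and in no comparison were all 6 pairs over 0.1. With the replicate number as a block, members called were 2 for casein, 5 for soy against Soy-20% + SAA, 1 against Soy-20%, 0 between the 20% soy diets, 0 between the controls, 2 between the restricted diets, 0 for the difference of effects and 5 among any diets. Over all genes, this block gave 2656 for casein, 2014 for soy against Soy-20% + SAA and 80 against Soy-20%. It gave 1 between the 20% soy diets, 141 between the controls and 1370 between the restricted diets.

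Over all genes, the 2035 called for Soy-10% against Soy-20% + SAA became 327 with the GC slope, 317 without libraries 3 to 6 of that control and 3077 with all livers in 1 fit. The 1 called between the 20% soy diets became 873 with DESeq2 and 1793 with all livers in 1 fit, and the 291 between the controls became 1135 and 2331, or 9 with the GC slope. For Soy-10% against Soy-20%, 103 became 217 with DESeq2 and 62 with all livers. Depth limits Mup13, Mup5 and Mup8, with single-liver counts down to 1, 4 and 1.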
